A study of Mus musculus with 8 samples.

Results

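Selenite was compared directly with zinc in primary mouse hepatocytes that lack Slc39a8 (ZIP8), a transporter of divalent metals that has also been linked to selenite uptake. The members are the libraries of Slc39a8 liver-specific knockout (LSKO) hepatocytes given sodium selenite or ZnCl2, which are 2 of the 8 RNA-seq libraries of the series, and the genes described are the 12442 protein-coding genes among the 15468 genes tested. The other libraries are 2 of untreated wild-type (WT) cells, 2 of untreated LSKO cells, 1 of LSKO cells given manganese and 1 of LSKO cells given iron. WT cells carried the floxed Slc39a8 alleles (Slc39a8(F/F)) without Cre, and LSKO cells were Alb-cre(+/+);Slc39a8(F/F), so that Cre was driven by the albumin promoter, which is active in hepatocytes. All mice were C57BL/6 at post-natal week 8, and all cells were kept in serum-free DMEM/F-12 with dexamethasone and antibiotics. Metals were given at 2 µM for 24 h (the series description says overnight). Each treatment has 1 library, and the sources do not say whether the libraries came from separate animals. The difference therefore has no replicate check of its own: its error was borrowed from the WT pair and the untreated LSKO pair, on the assumption that a lone treated library varies as those pairs do, and these pairs may carry technical spread only.

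Zinc and selenium are trace elements that cells read in different ways. When free zinc rises, the transcription factor MTF1 binds metal response elements and switches on metallothioneins, which bind zinc, and the exporter Slc30a1 (ZnT1), while importers of the ZIP family such as Slc39a4 and Slc39a10 are lowered. Selenium is built into selenoproteins as selenocysteine, and the mRNAs of several of them, Gpx1 and Selenow above all, are degraded when selenium is short. The liver makes most of the Selenop and a large part of the acute phase and coagulation proteins of the blood.

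Values below are CPM, read counts taken relative to the library total after TMM scaling, log2 fold changes are selenite over zinc with their standard errors (SE), and adjusted p are Benjamini-Hochberg values of the edgeR quasi-likelihood test over all 15468 genes. A gene was called when its adjusted p was under 0.05 and its log2 fold change was beyond 0.5 in size. Since the difference followed transcript length and GC content (below), fold changes of the genes the results turn on are also given from a second fit in which every library was corrected for both, called the corrected fit.

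Selenite and zinc libraries held 23361955 and 25339824 reads in genes, within the 19943899 to 27731054 of the other libraries. Their shares of reads in genes were 41.6% and 41.9%, against 39.3% to 42.1% elsewhere and 72.2% in the manganese library. The TMM factor was 0.867 with selenite and 0.969 with zinc, and 1.01 to 1.06 in the rest. Mitochondrial transcripts made up 5.03% of reads in genes with selenite and 3.62% with zinc. Slc39a8 itself stood at 12.7 and 15.5 CPM in WT cells, 8.15 and 1.88 in untreated LSKO cells, 1.48 with selenite and 1.83 with zinc, beside 3.18 with manganese and 2.34 with iron. It was lower in every LSKO library than in either WT library, although LSKO replicate 1 kept more of it than the other knockout libraries did. Hepatocyte markers were abundant in both libraries, summing to 52602 CPM with selenite and 38937 with zinc, with 14 of 14 detected. They summed to 22309 to 44443 CPM in the other libraries, so that selenite was the highest. Alb made up most of these sums, with 43296 CPM with selenite and 31655 with zinc, and was not called (log2 fold change 0.45, adjusted p = 0.112). Of the 14 markers, 10 had a positive and 4 a negative log2 fold change, with a median of 0.27.

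Without the correction, 414 protein-coding genes (3.33% of those tested) were called, 131 (1.05%) higher with selenite and 283 (2.27%) higher with zinc. With it, 38 (0.305%) were called, 22 (0.177%) and 16 (0.129%), of which 21 and 12 were also called without it. These 33 genes are the ones on which the description below turns. The calls rest on how the spread was estimated. Leaving out WT replicate 1 or WT replicate 2, or taking the spread from the LSKO pair alone, left 0 genes called in either direction by edgeR, with 1029, 1044 and 1187 genes higher with selenite and 1969, 1978 and 1656 higher with zinc at an unadjusted p under 0.05. Leaving out LSKO replicate 1 or 2 gave 285 or 288 genes higher with selenite and 868 or 873 higher with zinc. DESeq2 on all libraries called 72 and 202, and gave no adjusted p to 3578 protein-coding genes.

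**Figure D1:**
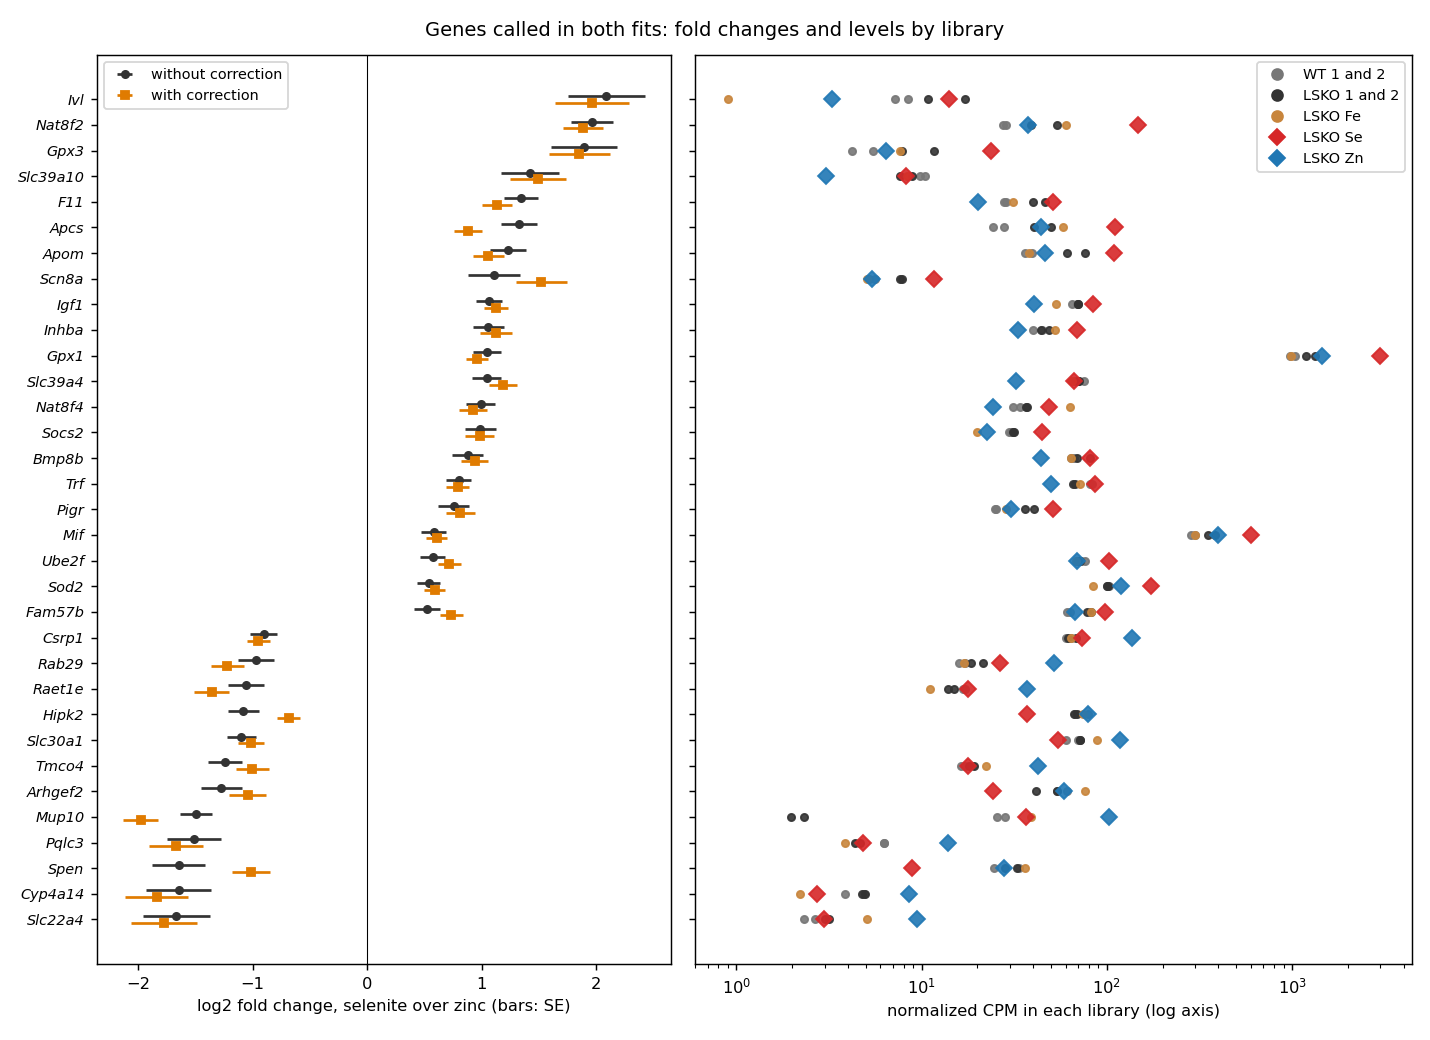
Left, log2 fold change of selenite over zinc with its SE for the 33 genes called without and with the length and GC correction. Right, their normalized CPM on a log axis in 7 libraries, with manganese left out: zinc (blue diamonds) was the highest of the 7 for 10 of the 12 genes that were higher with zinc, and selenite (red diamonds) was the highest for 16 of the 21 that were higher with selenite.

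Of 20 genes of zinc homeostasis tested, 1 exporter was higher with zinc and 2 importers were higher with selenite, while 17 did not pass. Over all protein-coding genes tested, 2.27% were called higher with zinc and 1.05% higher with selenite. The exporter Slc30a1 (ENSMUSG00000037434, chr1:191906767-191913247 of GRCm38, plus strand) stood at 117 CPM with zinc and 54.8 with selenite, against 60.3 and 69.8 in WT cells, 71.6 and 71.6 in untreated LSKO cells, 88.6 with iron and 55.1 with manganese. Zinc was the highest library and was 2.14-fold above selenite (log2 fold change -1.10, SE 0.126, adjusted p = 0.00918; corrected -1.01). Slc39a4 (chr15:76612383-76617384, minus strand), which brings zinc into the cell, stood at 32.2 CPM with zinc and 66.4 with selenite, while WT cells had 74.9 and 67.0, untreated LSKO cells 69.7 and 71.0, iron 64.8 and manganese 70.4. The zinc library stood apart from the 7 others, and selenite was 2.06-fold above it (log2 fold change 1.04, SE 0.124, adjusted p = 0.00918; corrected 1.19). Slc39a10, another importer, showed the same order at a low level: 3.06 CPM with zinc (75 reads), 8.2 with selenite (166 reads), 10.4 and 9.77 in WT cells, 8.85 and 7.69 in untreated LSKO cells, 8.32 with iron and 7.79 with manganese. Its log2 fold change was 1.42 (SE 0.254, adjusted p = 0.0267; corrected 1.49, adjusted p = 0.04995). For both importers selenite lay inside the range of the other 6 libraries and zinc lay below it.

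Metallothioneins were high in both treated libraries and higher with zinc. Mt1 stood at 1695 CPM with zinc and 1317 with selenite, against 561 and 565 in WT cells, 741 and 788 in untreated LSKO cells, 861 with iron and 912 with manganese. Mt2 stood at 1449 CPM with zinc and 1054 with selenite, against 510 and 472 in WT cells, 590 and 617 in untreated LSKO cells and 608 with iron. Both genes were thus above all 5 WT, untreated LSKO and iron libraries with either treatment. Mt1 did not pass without the correction (log2 fold change -0.36, adjusted p = 0.0783) and passed with it (-0.57, adjusted p = 0.0387), and Mt2 did likewise (-0.46, adjusted p = 0.0502; corrected -0.66, adjusted p = 0.0197). Exons of Mt2 and Slc30a1 overlap an annotated gene on the opposite strand, as do those of Spen, Arhgef2, Bmp8b, Fam57b, Mtf1, Selenop, Sephs2, Txnrd2, Rpl30, Notch1, Maml1, Furin, Setd1a, Kmt2c, mt-Nd6, Rpl28 and Des below, and since the strand setting of the counting is not given, reads of the pairs cannot be told apart. Trf, Notch2, Ep300, Setd1a, mt-Atp6, Rpl30 and Raet1e overlap a gene on their own strand. Mt2 was 35.8 CPM in the manganese library, the library whose share of reads in genes differed. That library had 4.48% of reads in no feature, against 42.3% to 45.6% in the others. Its values for genes that overlap another gene on the opposite strand may therefore not be comparable with those of the other libraries. Of the 24 genes listed as metallothioneins and zinc transporters, 20 were tested. Slc39a4 and Slc39a10 were higher with selenite, Slc30a1 was higher with zinc, and 17 did not pass, with a median log2 fold change of -0.09 (corrected -0.03), beside 0.00 over all protein-coding genes. Among those that did not pass were Slc39a14 (0.04), Slc30a5 (0.02) and Slc39a1 (0.12), and the factor Mtf1 itself (-0.27, adjusted p = 0.231). Mt3, Slc30a2, Slc30a10 and Slc39a5 had too few reads to be tested.

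**Figure D2:**
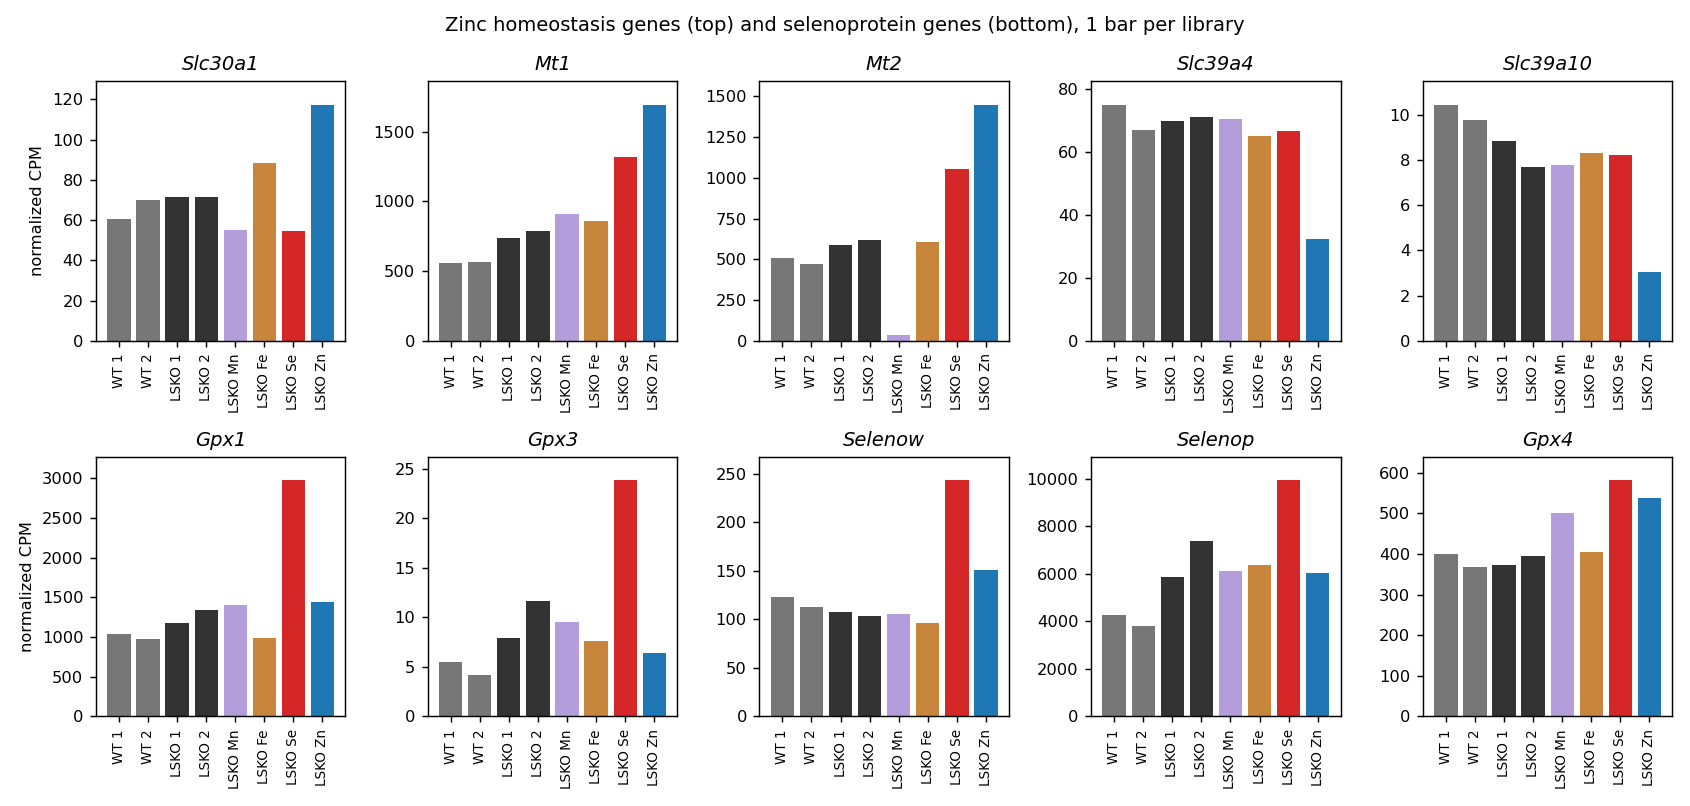
Normalized CPM, on linear axes that start at 0, of 5 zinc homeostasis genes (top) and 5 selenoprotein genes (bottom), 1 bar per library. The zinc library (blue) holds the highest Slc30a1, Mt1 and Mt2 and the lowest Slc39a4 and Slc39a10, and the selenite library (red) holds the highest Gpx1, Gpx3, Selenow, Selenop and Gpx4.

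The promoters of the genes that were higher with zinc were read for the core of the metal response element. The search was chosen after the values had been seen. It looked for TGCACNC and TGCGCNC on either strand in the 250 bases before each RefSeq start (GRCm38.p6), counting overlapping matches separately. Of the 12 genes higher with zinc in both fits, 11 had a promoter entry and 9 of these (81.8%) held at least 1 match in a window, while 5 (45.5%) held at least 2. The 9 include Spen, Arhgef2 and Hipk2, for which selenite stood below the other libraries. For Spen and Arhgef2 zinc lay within the range of the WT, untreated LSKO and iron libraries, so the set is not one of genes raised with zinc alone. Of the 21 genes higher with selenite in both fits, 17 had an entry and 0 held a match. Over the protein-coding genes tested, 9819 had an entry, 33.4% held at least 1 match and 9.46% at least 2, and among all 32851 windows 21.4% held 1. The cores are rich in G and C, and the windows of the 11 genes had a median GC content of 61.6%, against 51.6% for the genes higher with selenite and 59.6% for all. The 11 genes also had more windows each (1.64 on average, against 1.28). Genes that were higher with zinc only without the correction held a match in 45.9% of 218 with an entry, with a median GC content of 64.8%. A match is a description of these letters and no proof of a site. The stretches below show the match nearest to a start for the 9 genes and for Mt1 and Mt2, written 5′ to 3′ along the gene's strand, with the match in capitals. A match on the opposite strand appears as its reverse complement.
Slc30a1 (chr1:191906727-191906755, plus strand): acgggggttccGAGTGCAaagcaaagttt
Mt1 (chr8:94179055-94179083, plus strand): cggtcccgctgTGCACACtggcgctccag
Mt2 (chr8:94172557-94172585, plus strand): ggggggagggcGTGTGCAggctctgtccc
Slc22a4 (chr11:54028171-54028199, minus strand): ccagatcggtgGAGTGCAgtggcctttcg
Pqlc3 (chr12:17000150-17000178, minus strand): gactctgggcgGGGCGCAcgggcgcggaa
Spen (chr4:141538692-141538720, minus strand): ctccgcgcgccTGCGCGCcggctgggagg
Arhgef2 (chr3:88621126-88621154, plus strand): gaactggtgctGGGTGCAggggcgagggg
Tmco4 (chr4:138972860-138972888, plus strand): ttcaccgagcaGTGTGCAcaggaggggga
Hipk2 (chr6:38876301-38876329, minus strand): cggcgctcgatTGCGCGCggactccctgg
Raet1e (chr10:22158461-22158489, plus strand): aggctgtaattTGCACACtcgcctccggg
Csrp1 (chr1:135729130-135729158, plus strand): gttgtggtgcaGTGTGCAaagcctactgg
These matches begin 22 to 128 bases before a start. Pqlc3 held 4 matches in its window, Slc22a4 and Mt2 held 3, Spen, Tmco4 and Csrp1 held 2, and Slc30a1, Mt1, Arhgef2, Hipk2 and Raet1e held 1. Mup10 and Rab29 held 0, as did both windows of Slc39a10, and the promoter table used here gives no entry for Cyp4a14 or Slc39a4.

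The other genes higher with zinc in both fits were a mixed group, and zinc was the library that stood apart for most of them. Pqlc3, a membrane protein of the PQ-loop family, stood at 13.8 CPM with zinc and 4.84 with selenite, against 3.84 to 6.28 in the WT, untreated LSKO and iron libraries (log2 fold change -1.51; corrected -1.67). Slc22a4, a carrier of organic cations and ergothioneine, stood at 9.42 CPM with zinc and 2.96 with selenite, against 2.33 to 5.08 in those 5 libraries (-1.67; corrected -1.77). Tmco4 stood at 42.3 CPM with zinc and 17.8 with selenite, against 16.4 to 22.2 (-1.24; corrected -1.004). Zinc alone was above the 5 other libraries for these 3 genes, and selenite lay among them. Csrp1, an actin-associated LIM protein, stood at 137 CPM with zinc, 73.2 with selenite and 60.1 to 68.2 in the 5 others (-0.90; corrected -0.95). Rab29, a small GTPase of the Golgi and lysosomes, stood at 51.8, 26.4 and 16.0 to 21.3 CPM in the same order (-0.97; corrected -1.22). Raet1e, a ligand of the natural killer receptor NKG2D, stood at 36.8, 17.7 and 11.1 to 17.2 CPM (-1.05; corrected -1.36). Selenite was also above the 5 others for these 3 genes, by a smaller margin than zinc. Cyp4a14, a fatty acid hydroxylase of the P450 family, stood at 8.52 CPM with zinc and 2.72 with selenite, but at 12.9 with manganese (-1.65; corrected -1.84).

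For Spen, Arhgef2 and Hipk2 it was the selenite library that stood apart, below all the others. Spen, a large corepressor that acts with Rbpj, stood at 8.89 CPM with selenite and 27.8 with zinc, against 24.6 and 33.6 in WT cells, 32.8 and 28.3 in untreated LSKO cells, 36.0 with iron and 31.4 with manganese. The log2 fold change was -1.65 (SE 0.230, adjusted p = 0.0167) and shrank to -1.02 in the corrected fit (adjusted p = 0.0484). Arhgef2, a microtubule-associated protein, stood at 24.4 CPM with selenite and 59.0 with zinc, against 41.7 to 76.3 in the WT, untreated LSKO and iron libraries (-1.28; corrected -1.04). Hipk2, a nuclear kinase, stood at 37.3 with selenite and 78.9 with zinc, against 66.3 to 78.8 (-1.08; corrected -0.68). Mup10, one of the major urinary proteins whose near-identical copies can share reads, stood at 103 CPM with zinc and 36.7 with selenite, but its level ran from 1.98 and 2.32 in untreated LSKO cells to 25.6 and 28.1 in WT cells and 39.2 with iron (log2 fold change -1.49; corrected -1.98). For Mup10 the gap between WT and untreated LSKO libraries was larger than the gap between selenite and zinc.

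Selenoprotein genes were higher with selenite where they differed. Gpx1 (chr9:108338903-108340343, plus strand), a cytosolic glutathione peroxidase, stood at 2976 CPM with selenite and 1443 with zinc, against 1043 and 971 in WT cells, 1183 and 1336 in untreated LSKO cells, 986 with iron and 1404 with manganese. It was 2.06-fold higher with selenite (log2 fold change 1.04, SE 0.121, adjusted p = 0.00918; corrected 0.96, adjusted p = 0.00604). Gpx3 (chr11:54902453-54910377, plus strand), the secreted peroxidase, stood at 23.8 CPM with selenite and 6.40 with zinc, against 5.48 and 4.23 in WT cells, 7.89 and 11.6 in untreated LSKO cells, 7.63 with iron and 9.49 with manganese. It was 3.72-fold higher with selenite (log2 fold change 1.89, SE 0.285, adjusted p = 0.0185; corrected 1.85). For both genes selenite stood above every other library and zinc lay within or just above the range of the rest. Selenow stood at 243 CPM with selenite and 151 with zinc, against 123 and 113 in WT cells, 107 and 103 in untreated LSKO cells, 96.7 with iron and 106 with manganese, and was called only without the correction (0.69, adjusted p = 0.0214; corrected 0.56, adjusted p = 0.0683). Selenop, the selenium carrier of plasma, stood at 9922 CPM with selenite and 6039 with zinc, and at 5873 and 7358 in the untreated LSKO pair, and was likewise called only without it (0.72, adjusted p = 0.0424; corrected 0.43, adjusted p = 0.131). Zinc was itself the next highest library for Selenow and lay between the untreated LSKO libraries for Selenop.

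Of the 24 selenoprotein genes listed, 22 were tested, 4 were higher with selenite, 0 were higher with zinc and 18 did not pass, with a median log2 fold change of 0.23. In the corrected fit 2 were higher and the median was 0.02. The share called higher with selenite over all protein-coding genes tested was 1.05% without the correction and 0.177% with it. Gpx4, the lipid peroxidase, stood at 581 CPM with selenite and 539 with zinc, both above the 367 to 406 of the WT, untreated LSKO and iron libraries, and their difference did not pass (0.11, adjusted p = 0.584). The thioredoxin reductases Txnrd1 (-0.03) and Txnrd2 (-0.10), and Gpx2 (-0.04, with 37 and 46 reads), did not pass either. Sephs2, which makes the selenium donor and is itself a selenoprotein, had the opposite sign (-0.46, adjusted p = 0.0697). Dio2 and Selenov had too few reads to be tested. The 10 genes of selenocysteine synthesis and insertion had 0 calls and a median of -0.07, and the smallest p among them was that of Rpl30 (0.31, adjusted p = 0.111), also a ribosomal protein gene. The lists of NRF2 and its targets (19 tested) and of glutathione S-transferases (21 tested) had 0 calls each without the correction, and Gsto1, which was higher with zinc, was the only call with it (-0.67, adjusted p = 0.0201). Nfe2l2 (NRF2) had a log2 fold change of 0.42 (adjusted p = 0.0544).

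The remaining genes higher with selenite in both fits included several secreted products of the hepatocyte. Igf1, the growth factor of the growth hormone axis, stood at 84.5 CPM with selenite and 40.4 with zinc, against 68.9 and 64.8 in WT cells, 69.9 and 70.0 in untreated LSKO cells, 53.4 with iron and 70.3 with manganese. Selenite was the highest and zinc the lowest of the 8 libraries (log2 fold change 1.07, SE 0.114, adjusted p = 0.00918; corrected 1.13). Socs2, an inhibitor of growth hormone signaling, stood at 44.7 and 22.5 CPM, against 20.0 to 31.5 in the WT, untreated LSKO and iron libraries (0.99; corrected 0.98), so that selenite alone was outside them. F11, a coagulation factor, stood at 51.3 CPM with selenite and 20.2 with zinc, against 28.0 to 46.4 (1.35; corrected 1.13). Trf, the iron carrier transferrin, stood at 86.5 and 49.7 CPM, against 66.0 to 82.9 (0.80; corrected 0.79), and was the only call among 17 genes of iron handling, whose median was -0.02. Inhba, the activin A subunit, stood at 69.0 and 33.1 CPM, against 39.9 to 52.4 (1.06; corrected 1.13). Zinc was the lowest library for F11, Trf and Inhba and selenite was above the range of the 5 libraries. Manganese was at 53.7 CPM for F11, 83.5 for Trf and 58.3 for Inhba, and so above selenite for F11. Bmp8b (81.2 and 44.2 CPM; 0.88, corrected 0.94) and the acetyltransferase gene Nat8f4 (48.6 and 24.4 CPM; 0.99, corrected 0.93) were low with zinc, while selenite lay inside the range of the untreated and iron libraries. Nat8f4 was at 110 CPM with manganese, above selenite.

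A further set was high with selenite while zinc lay inside the range of the WT, untreated LSKO and iron libraries. Nat8f2, a homolog of Nat8f4, stood at 148 CPM with selenite and 37.7 with zinc, against 27.6 to 59.9 in the WT, untreated LSKO and iron libraries and 168 with manganese (log2 fold change 1.97, SE 0.183, adjusted p = 0.00459; corrected 1.89). Apcs, which encodes serum amyloid P, stood at 110 and 43.9 CPM, against 24.3 to 57.7 (1.33; corrected 0.88). Apom, an apolipoprotein of HDL, stood at 109 and 46.5 CPM, against 36.3 to 76.2 (1.23; corrected 1.06). Pigr, the receptor that carries IgA across epithelia, stood at 51.3 and 30.4 CPM, against 24.8 to 40.4 (0.76; corrected 0.81). The sodium channel gene Scn8a stood at 11.7 and 5.42 CPM, against 5.08 to 7.80 and 11.6 with manganese (1.11; corrected 1.52). Ube2f, a NEDD8-conjugating enzyme, stood at 103 and 69.0 CPM, against 68.3 to 76.1 (0.58; corrected 0.72). Within this set, manganese was thus at the level of selenite for Nat8f2 and Scn8a. Sod2, the mitochondrial superoxide dismutase, and Mif, a cytokine, stood at 173 and 598 CPM with selenite and 119 and 399 CPM with zinc, both treatments being above the 5 WT, untreated LSKO and iron libraries, while manganese (124 and 410 CPM) was slightly above zinc (Sod2 0.54, corrected 0.59; Mif 0.58, corrected 0.61). Ivl, an epithelial envelope protein, had the largest fold change of the 33 genes (2.09; corrected 1.96), but untreated LSKO replicate 2 (17.2 CPM) was above selenite (14.1 CPM) and iron (0.897 CPM) was below zinc (3.30 CPM). Fam57b (97.2 and 67.6 CPM; 0.52, corrected 0.73) had 0 reads in the manganese library, whose share of reads in genes differed. Its exons overlap a gene on the opposite strand, so this 0 may not be comparable with the other libraries.

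Which of the 2 libraries stood apart was counted over the 7 libraries other than manganese. Among the 21 genes higher with selenite in both fits, selenite was the highest library for 16 and zinc the lowest for 8. Among the 12 higher with zinc, zinc was the highest for 10 and selenite the lowest for 4. Among the 283 genes higher with zinc without the correction, by contrast, selenite was the lowest for 267 and zinc the highest for 39. Over all protein-coding genes tested, selenite was the highest for 3478 and the lowest for 3552, and zinc for 1126 and 1216. These counts are descriptions, since a gene chosen for a difference between 2 libraries tends to have one of them at an extreme.

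The difference between the libraries followed transcript length and GC content. Over the 9974 protein-coding genes with a mean of at least 2 log2 CPM, splines of the longest transcript's length and GC content described 36.1% of the variance of the log2 difference, length alone 17.9% and GC content alone 8.78%. When the genes were split by length into 10 bins of equal size, the median log2 difference was 0.26 in the bin of shortest transcripts (up to 1456 bases) and -0.26 in that of the longest (from 6803 bases). By GC content the medians ran from 0.11 in the lowest bin to -0.24 in the highest, above 57.4% GC. The calls followed the same order. In the shortest bin 44 genes were called higher with selenite and 4 higher with zinc, and in the longest 2 and 112. The 131 genes higher with selenite had a median length of 1922 bases and the 283 higher with zinc 5759 bases, against 3357.5 for all. In the corrected fit the shortest bin held 4 calls higher with selenite and 5 higher with zinc, and the longest 3 and 2. The genes called in both fits had median lengths of 2940 bases (higher with selenite) and 2770.5 bases (higher with zinc).

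**Figure D3:**
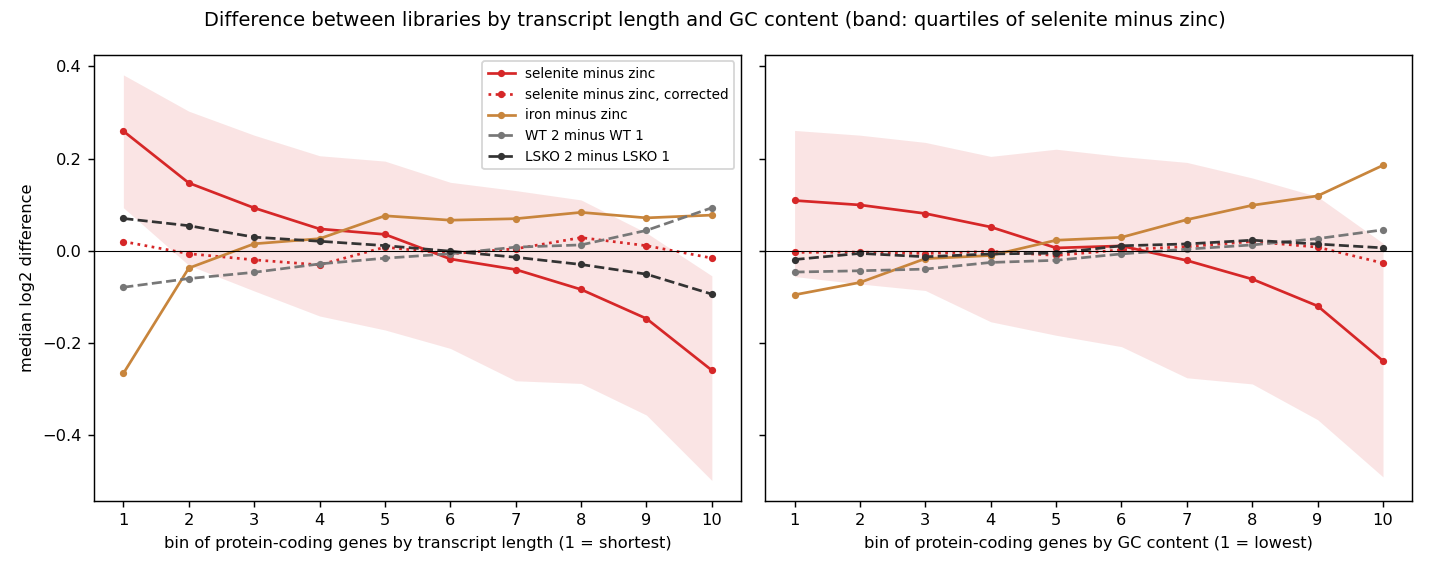
Median log2 difference between libraries (vertical axis) in 10 bins of protein-coding genes by transcript length (left) and GC content (right), with the quartiles of selenite minus zinc as a band. Selenite minus zinc fell from 0.26 to -0.26 with length, and the dotted line after correction stayed between -0.03 and 0.03 over the length bins.

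A trend of this kind was not particular to the treated libraries. The same splines described 13.2% of the variance between the WT replicates and 7.78% between the untreated LSKO replicates, which had the same treatment. For iron minus zinc they described 14.8%, with the sign of the length trend turned, and for selenite minus iron 39.6%. The size of the differences was also unequal: the SD of the log2 difference was 0.351 for selenite minus zinc (0.281 after correction), 0.400 for iron minus zinc, 0.183 between WT replicates and 0.202 between LSKO replicates. With 1 library per treatment, a trend of the library and one of the treatment cannot be told apart.

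**Figure D4:**
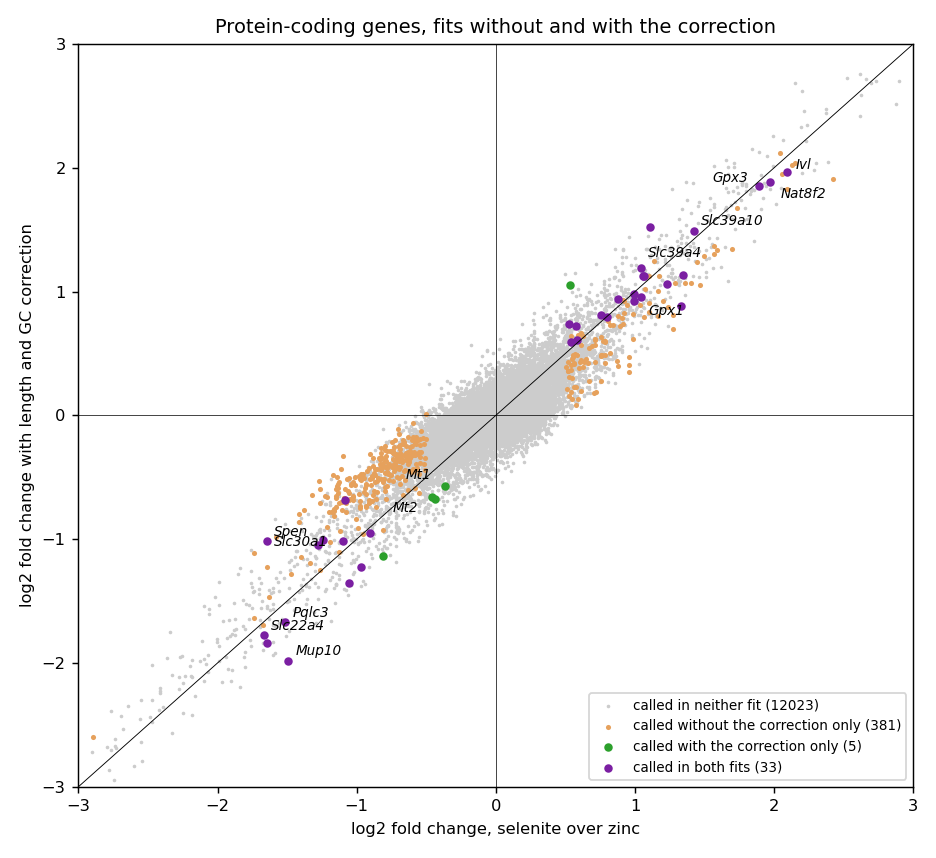
Each point is 1 of the 12442 protein-coding genes, with its log2 fold change of selenite over zinc without (horizontal) and with (vertical) the length and GC correction; 42 genes lie outside the axes. The 33 genes called in both fits (purple) lie near the diagonal, the 381 called only without the correction (orange) lie mostly nearer to 0 on the vertical axis, and 5 were called only with it (green).

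Of the Notch pathway genes tested, 6 were higher with zinc without the correction and 1 with it. Over all protein-coding genes tested, 2.27% were called higher with zinc without the correction and 0.129% with it. The study picked the Notch pathway from the selenite library itself, so the list is not independent evidence of its direction. It compared selenite with untreated cells, whereas the comparison here is with zinc. The study also reported lower Notch pathway mRNA by qRT-PCR in hepatocytes. It further reported lower Notch1 protein in cancer cell lines and in mouse liver and kidney. Of 32 genes listed, 27 were tested, 0 were higher with selenite and 21 did not pass, and 19 log2 fold changes were negative, with a median of -0.24. Those higher with zinc included Spen (above), the receptor Notch2 and the coactivators Maml1, Crebbp and Ep300. Notch2 stood at 23.4 CPM with selenite and 45.2 with zinc, against 37.9 and 45.6 in WT cells, 44.1 and 45.3 in untreated LSKO cells, 50.5 with iron and 42.3 with manganese (-0.95, adjusted p = 0.0214; corrected -0.47, adjusted p = 0.113). Maml1 stood at 10.6 and 21.5 CPM, against 23.7 to 33.3 in the other 6 libraries (-1.03, adjusted p = 0.0287; corrected -0.66, adjusted p = 0.121), so that zinc was also below them. In the corrected fit Spen alone was called and the median was -0.19. The receptor Notch1 stood at 10.8 CPM with selenite and 17.6 with zinc, against 17.8 and 20.2 in WT cells, 24.4 and 25.1 in untreated LSKO cells, 23.3 with iron and 17.5 with manganese. The difference between selenite and zinc did not pass (-0.70, adjusted p = 0.0544; corrected -0.14, adjusted p = 0.677). Furin (-0.49, adjusted p = 0.0514; corrected -0.10), Myc (-0.50, adjusted p = 0.0663; corrected -0.52), Notch4 (-0.79, adjusted p = 0.214), Rbpj (0.28, adjusted p = 0.257) and Psen2 (-0.28, adjusted p = 0.390) did not pass. The target Hes1 stood at 12.99 CPM with selenite and 12.8 with zinc (0.03, adjusted p = 0.950; corrected -0.19). Both were below the 18.2 to 21.3 CPM of the WT, untreated LSKO and iron libraries, and manganese was at 12.2 CPM. The tested genes of the list had a median length of 5485 bases. In the length bin that holds this median (5294 to 6803 bases), 47 of 997 genes were called higher with zinc without the correction. In the longest bin 112 of 998 were. Notch3, Jag2, Hey1, Hey2 and Heyl had too few reads to be tested.

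The lists with the lowest and the highest median held long and short transcripts, and their calls were lost with the correction. Over all protein-coding genes tested, 2.27% were called higher with zinc and 1.05% higher with selenite, and 0.129% and 0.177% with the correction. Without the correction, the bin of longest transcripts held 112 calls higher with zinc among 998 genes. The bin of shortest transcripts held 44 higher with selenite among 998. The histone H3K4 methyltransferase genes of the MLL and SET1 family (12 tested, median length 7893 bases) had 4 genes higher with zinc, Setd1b (-1.58; corrected -0.98), Kmt2d (-1.27; corrected -0.53), Setd1a (-1.06; corrected -0.61) and Kmt2c (-0.94; corrected -0.56), and a median of -0.64. In the corrected fit 0 passed and the median was -0.29. The protein genes of the mitochondrial genome (13 tested, median 784 bases) had 8 genes higher with selenite, among them mt-Atp6 (1.27; corrected 0.70), mt-Co2 (0.96; corrected 0.41) and mt-Nd6 (0.95; corrected 0.35), and a median of 0.86. In the corrected fit 0 passed and the median was 0.28. The untreated LSKO replicates differed by a median of -0.33 over the same 13 genes. With selenite and zinc, mt-Atp6 stood at 24.7 and 10.2 CPM and mt-Co2 at 33.1 and 17.0, far below mt-Nd6 at 2016 and 1040. For mt-Atp6 (26.5 and 23.1 CPM) and mt-Co2 (40.6 and 30.2 CPM) selenite lay between the untreated LSKO libraries. For mt-Nd6 (1277 and 1000 CPM) it lay above them. Of 75 nuclear genes of oxidative phosphorylation (median length 1141 bases), 74 had a positive log2 fold change, beside 6283 of all 12442 protein-coding genes. Their median was 0.31, but only Uqcrh (0.61; corrected 0.20) and Cox7a2 (0.51; corrected 0.21) passed. With the correction the median was 0.11 and 0 passed. Of 79 cytosolic ribosomal protein genes (median length 1059 bases), 77 were positive and the median was 0.33. Rpl28 (0.52; corrected 0.31) alone passed, and with the correction the median was 0.13 with 0 calls. Genes of basement membrane and collagens (22 tested) had a median of -0.44 with Agrn (-0.82; corrected -0.31) and Lamc1 (-0.69; corrected -0.30) higher with zinc, and a corrected median of -0.04 with 0 calls.

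**Figure D5:**
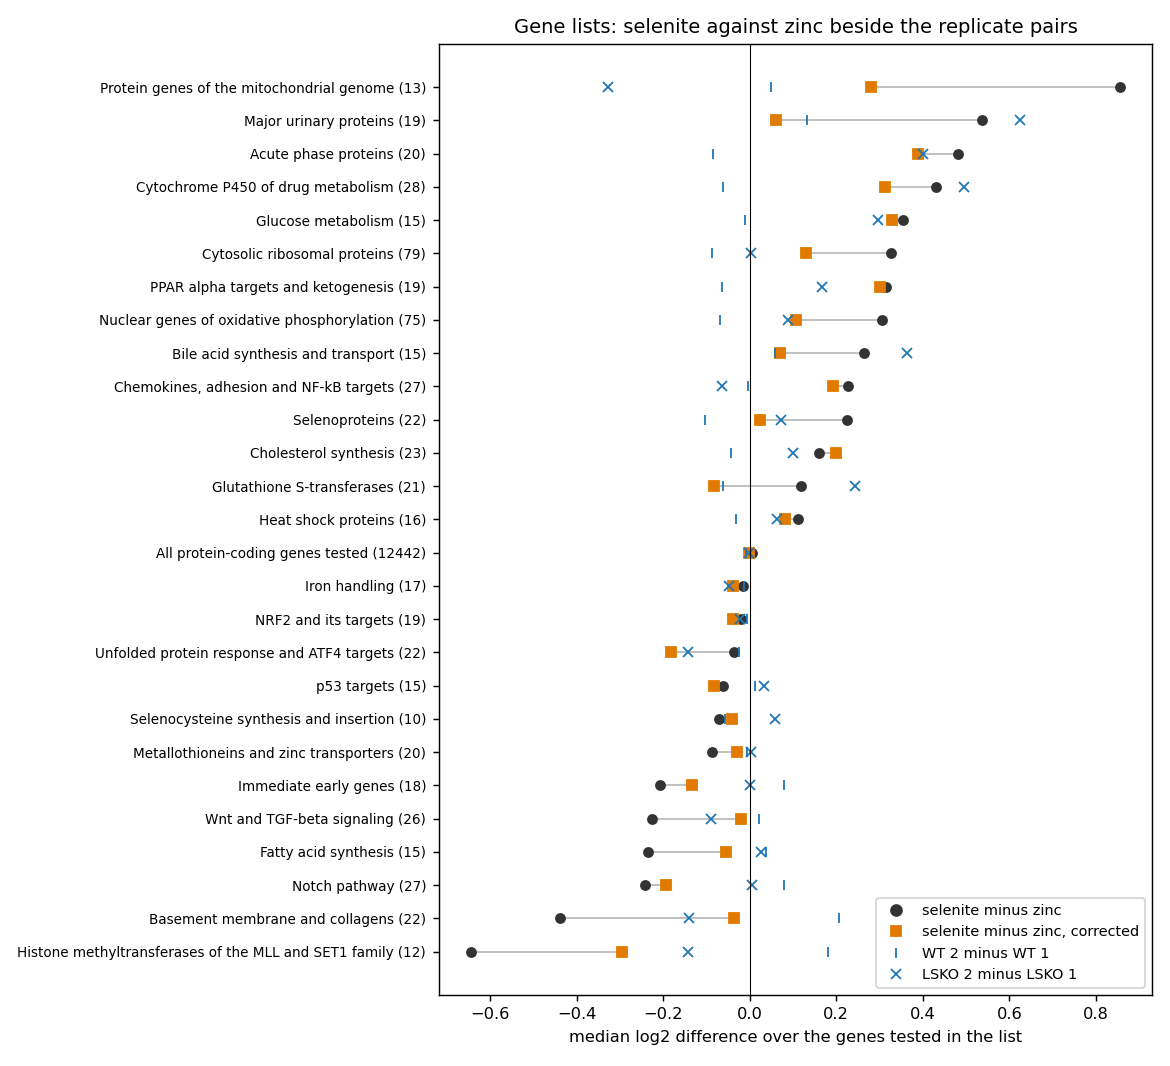
Median log2 difference over the tested genes of each list (number in brackets) for selenite minus zinc without (black) and with (orange) the correction, beside the differences within the WT pair (blue bars) and the untreated LSKO pair (blue crosses), whose sign depends on replicate order. The mitochondrial genome list moved from 0.86 to 0.28 and the MLL and SET1 list from -0.64 to -0.29.

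Genes of liver function were more often positive than negative, while 6283 of all 12442 protein-coding genes were positive. Of these 12442 genes, 1.05% were called higher with selenite and 2.27% higher with zinc, and 0.177% and 0.129% with the correction. Median lengths were 2079 bases for acute phase proteins, 1970 for P450 genes and 927 for major urinary proteins, against 3357.5 for all. Acute phase proteins (20 tested) were all positive, with a median of 0.48 and 4 genes higher with selenite: Apcs (above), Saa4 (1.17; corrected 1.002), Saa3 (0.91; corrected 0.74) and the antiproteinase Serpina3n (0.82; corrected 0.73). In the corrected fit the median was 0.39 and Apcs alone passed. The 2 untreated LSKO replicates, which had the same treatment, differed by a median of 0.40 over this list. P450 genes of drug metabolism (28 tested) had 3 genes higher with selenite, Cyp2j5 (1.57; corrected 1.30), Cyp2d26 (0.92; corrected 0.83) and Cyp2a5 (0.78; corrected 0.59), and a median of 0.43, and the untreated LSKO pair differed by 0.50. With the correction the median was 0.31 and 0 passed. Cyp2a5 was 298 CPM with iron, above selenite (238) and zinc (138). Major urinary proteins (19 tested) had a median of 0.54, the LSKO pair 0.62, and calls in both directions, with Mup3 (0.58; corrected 0.08) higher with selenite and Mup10 higher with zinc. The median with the correction was 0.06 and Mup10 alone passed. For these 3 lists the difference between treatments was no larger than that within the untreated LSKO pair, or larger by less than 0.1.

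Of the genes of lipid and sugar metabolism that were called, Cyp4a14 alone passed in both fits. Over all protein-coding genes tested, 3.33% were called without the correction and 0.305% with it. Among PPAR alpha targets and ketogenesis genes (19 tested, median 0.31) Fabp1 (1.27; corrected 0.81) and Ehhadh (0.84; corrected 0.73) were higher with selenite and Cyp4a14 was higher with zinc. Fasn, the fatty acid synthase, was higher with zinc (-0.71; corrected -0.11), as 1 of 15 genes of fatty acid synthesis. Nsdhl (0.66; corrected 0.43) was the only call of 23 genes of cholesterol synthesis, and the glycolytic gene Ldha (0.71; corrected 0.57) the only one of 15 of glucose metabolism. None of these 3 calls was kept with the correction (adjusted p = 0.638, 0.159 and 0.0945). Bile acid synthesis and transport (15 tested, median 0.26) had 0 calls. Stress lists gave little: heat shock proteins (16 tested), immediate early genes (18 tested) and p53 targets (15 tested) had 0 calls. The sensor Ern1 was higher with zinc as 1 of 22 genes of the unfolded protein response (-0.73; corrected -0.45), Tcf7l2 as 1 of 26 of Wnt and TGF-beta signaling (-1.68; corrected -1.69), and Nfkbia was higher with selenite as 1 of 27 chemokine, adhesion and NF-kB genes (0.54; corrected 0.41). With the correction these 3 calls were lost (adjusted p = 0.115, 0.0804 and 0.121). Tcf7l2 had only 26 reads with selenite and 101 with zinc, and its log2 fold change hardly moved with the correction.

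Summed CPM with selenite and zinc were 693 and 576 for Kupffer cells and macrophages (436 to 867 in the other libraries), 178 and 174 for sinusoidal endothelial cells, 412 and 393 for stellate cells and fibroblasts, and 82.7 and 54.0 for cholangiocytes. Of the members tested, Cd14 (0.56; corrected 0.42) and the cholangiocyte keratin gene Krt19 (0.92, corrected 0.92; 11.8 CPM with selenite and 6.24 with zinc) were higher with selenite. So was the hepatocyte marker Ttr (0.79; corrected 0.42), and 0 of these markers passed in the corrected fit. Adgre1 (0.42), Clec4f (0.35), Pecam1 (0.22) and Des (0.08) did not pass. Neutrophil and monocyte markers summed to 2.96 and 2.12 CPM, with 6 and 8 of 10 at 0, and lymphocyte markers to 0.296 and 0, with 8 and 11 of 11 at 0. Their part in the differences was not tested. In these bulk libraries, a smaller number of cells of one type and less RNA per cell cannot be told apart.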

How the data were processed

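Primary hepatocyte RNA of 8 cultures was sequenced. Per the labels and the paper's methods, the authors trimmed reads with Trimmomatic, aligned them to GRCm38 with HISAT2 and counted them with HTSeq. The deposited values are raw read counts per gene, 1 table per sample with no normalization. Strandedness of the counting and the gene annotation used are not given in the sources used. The 5 summary entries for unassigned reads (no feature, for example, 44.4% of reads with selenite and 44.7% with zinc) stayed out of library sizes and tests.

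All 55450 gene identifiers matched GENCODE M21. Genes whose counts summed to 80 or more over the libraries were fitted in R 4.3.3 with edgeR 4.0.16: TMM factors, 6 groups, quasi-likelihood F-test of selenite minus zinc, Benjamini-Hochberg adjustment over all genes tested. The fit had 2 residual degrees of freedom, from the WT and LSKO pairs, and 8.53 prior degrees of freedom from moderation across genes; the common biological coefficient of variation was 8.29%. SE was obtained from F, as the fold change's size on the log2 scale over the root of F. Replicates differed by more than counting noise (chi-square per degree of freedom 5.98 for WT and 13.3 for LSKO, against 33.7 between selenite and zinc). For the corrected fit, each library's log2 CPM (prior count 2) was regressed robustly on natural splines (4 degrees of freedom each) of the log2 length and GC content of the longest transcript, over genes of at least 2 log2 CPM, and the fitted values entered as offsets. The scripts were tested on simulated data.

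Named genes were the 10 largest changes in each direction among genes with at least 100 normalized counts called in both fits, up to 3 called members of each list, or the member with the smallest p, genes the study names, Mt1, Mt2, Slc30a1 and some markers. The rest of the genes called in both fits, other list members named as not called, and the promoter search were chosen after their values were seen. The comparison and the gene lists were chosen with earlier results of these data known. Alternatives covered normalization, tool (DESeq2 1.42.0), filter, libraries, source of the spread, threshold and each replicate left out. Promoter sequences are from RefSeq (GRCm38.p6). Some of the named genes are not reported here.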

Additional observations from a re-analysis of the deposited data

How the results depend on the processing

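The counts of genes called depended on the source of the spread more than on scaling. Genes higher with selenite (131) numbered 72 with DESeq2, 313 with no filter, 323 with the spread from the WT pair only, 0 with the spread from the LSKO pair only, 47 when a log2 fold change beyond 1 was required and 22 with the length and GC correction. Genes higher with zinc (283) numbered 811 with no filter, 740 with the WT pair only, 0 with the LSKO pair only, 81 beyond 1 and 16 with the correction. Leaving out each replicate in turn gave 0 to 288 and 0 to 873, the 0 in each case being without a WT replicate, where the adjusted p of Slc30a1 was 0.0701 or 0.0661. Median-ratio factors (107 and 323), filterByExpr (128 and 345), leaving out manganese (140 and 301), only 6 libraries (136 and 288), protein-coding genes alone (119 and 276) and no minimum fold (144 and 291) kept both counts within 1.5 times, as did DESeq2 for genes higher with zinc (202). Of the 33 genes called in both fits, DESeq2 called 26 and did not call Slc22a4, Scn8a, Slc39a10, Cyp4a14, Pqlc3, Ivl and Fam57b. Slc22a4, Scn8a, Slc39a10, Cyp4a14, Pqlc3 and Ivl were among 3578 protein-coding genes to which DESeq2 gave no adjusted p, so they could not be called. Leaving out either LSKO replicate lost Sod2 and Fam57b, and no filter lost Fam57b. Hes1, which was not called, changed sign from 0.03 to -0.19 with the correction and to -0.02 without any 1 replicate, and the median of the glutathione S-transferases changed from 0.12 to -0.08 with the correction. The share of variance described by length and GC content (36.1%) was 19.2% with no expression floor and 17.1% with the median transcript length, so its size depends on which transcript stands for a gene. With 1 library per treatment, neither depth nor these tests can separate the treatment from the library. No paired analysis was possible because the selenite and zinc groups hold 1 library each and carry no replicate number.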
